A study of Arabidopsis thaliana with 12 samples.

Results

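Among probes with a single gene name on this Arabidopsis thaliana array, 3 genes represented chlorophyll and carotenoid synthesis. These were Z-ISO (AT1G10830), CHLM (AT4G25080) and CHLP (AT1G74470). Their probes were picked by annotation, as those whose platform entry gives exactly 1 gene and where that gene is 1 of these 3. Each gene had 1 probe, so the group holds 3 of the 692 probes with a single gene name and 3 of the 3248 features tested. The series compared 6 samples titled stn7, a mutant, with 6 titled WT, the wild type, on 1-channel expression arrays, and all 12 samples were of the Columbia 0 ecotype. The labels name no stn7 allele, tissue, age or growth condition, and STN7 itself, the thylakoid protein kinase of state transitions, had no annotated probe, so it could not check the labels. Of the 6 samples titled stn7, 1 has a source name that says mutant and 5 have the source name of the WT; the groups used here follow the titles.

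Plants make chlorophyll from a porphyrin ring and a phytyl tail, which chlorophyll synthase joins. CHLM is the methyltransferase that acts on magnesium protoporphyrin IX, on the branch of tetrapyrrole synthesis that leads to chlorophyll. CHLP is geranylgeranyl reductase, which reduces the geranylgeranyl group to the phytyl group used for chlorophyll and for tocopherols. Z-ISO is the zeta-carotene isomerase, which acts between phytoene desaturase and zeta-carotene desaturase on the way to lycopene. Chlorophyll and carotenoids are built into the same photosystem and antenna proteins. Phosphorylation of antenna proteins by STN7 is the basis of state transitions, the short-term balancing of light between both photosystems.

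Unless the deposited values are named, values below are relative intensities after quantile normalization, in which all arrays share the same distribution. Samples with consecutive numbers (1 with 2, 3 with 4, 5 with 6) shared their deviations from the mean of their group, so each such pair was averaged into 1 replicate, numbered 1 to 3, and n is 3 per group. None of the 3 genes had a deposited value of 0 or lay at the floor of 0.0702 in any sample. Separate plants are not stated for the samples; the p-values rest on the spread between these arrays, which may be technical, and the number of arrays limits the precision. Leaf chloroplast transcripts were bright, with 7 of 10 marker genes measured. Their median place over the arrays ran from the 75.4th (SBPASE) to the 99.7th percentile (PSBW) of brightness. In the limma fit over all features 1 of the 7, PSB27, was called lower in stn7 (-0.81 log2, adjusted p = 0.0317), as were 8.68% of all features. Brightness depends on the probe, and none of 13 root, seed, senescence and pollen markers was on a probe with a single gene name, so the tissue could not be checked against others.

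Z-ISO was the gene of this group that rose in stn7. Its intensity was 0.352 and 0.334 in stn7 samples 1 and 2, 0.371 and 0.384 in samples 3 and 4, and 0.528 and 0.604 in samples 5 and 6, with a median of 0.377. In the WT samples the lowest was 0.186, the median 0.200 and the highest 0.237. All 6 stn7 samples lay above all 6 WT samples, as did 10.7% of all features, and stn7 samples 5 and 6 lay above the other stn7 samples. The mean over replicates was 0.429 ± 0.120 in stn7 and 0.206 ± 0.018 in WT (SD, n = 3 each). The difference of the mean log2 values was 1.03, or 2.04-fold higher (95% interval 0.53 to 1.52 log2), with an adjusted p of 0.0246 in the limma fit over all features. In bulk samples more RNA per cell and more cells of a type cannot be told apart. Across the array 6.53% of features were called higher and 15.2% in either direction, and 45 of 3248 features had a larger difference than Z-ISO.

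The Z-ISO level varied more between the stn7 replicates than between the WT replicates. Replicate numbers were not taken to pair samples across genotypes. In the order of their numbers the stn7 replicates lay at -1.54, -1.41 and -0.82 log2. The WT replicates lay at -2.29, -2.16 and -2.41 log2. The mutant replicates spanned 0.72 log2, against 0.25 log2 for the WT replicates. The stn7 sample whose source name says mutant, sample 1, had the intensity 0.352, above every WT sample. With 1 averaged replicate left out, the difference stayed between 0.81 and 1.17 log2, but limma called it only without stn7 replicate 3 (adjusted p = 0.0439). In the other 5 cases the adjusted p lay between 0.0530 and 0.0830.

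CHLM was higher on average in stn7 but did not pass the threshold. Its intensity was 0.498 in stn7 sample 1, 0.616 to 0.818 in samples 2, 3, 4 and 6, and 0.999 in sample 5, with a median of 0.705. The WT samples ran from 0.456 through a median of 0.499 to 0.599. Thus 5 of 6 stn7 samples lay above every WT sample, and stn7 sample 1 fell inside the WT range. The share of all features with 5 of 6 samples above was not counted. The means were 0.723 ± 0.168 in stn7 and 0.514 ± 0.026 in WT (SD, n = 3 each). The fitted difference was 0.46 log2, or 1.38-fold higher (SE 0.19, 95% interval 0.02 to 0.91), with an adjusted p of 0.140. The 3 averaged stn7 replicates, at -0.80, -0.56 and -0.15 log2, lay above the 3 WT replicates, between -1.01 and -0.88 log2, as they did in 20.8% of all features.

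The averaged WT replicates of CHLM spanned 0.12 log2, against 0.65 log2 for those of stn7. The single WT arrays lay further apart than their averages, with a gap of up to 0.29 log2 between consecutive samples. Matched by replicate number, which was not taken to pair samples, the differences were 0.21, 0.44 and 0.74 log2. Each of these values depends on that matching. Samples 1 and 2 of stn7 differed from each other by 0.42 log2, the largest gap between consecutive samples for this gene. The call depended on how consecutive samples were counted. Treated as 12 separate samples, the same difference of 0.46 log2 had an adjusted p of 0.0239 in limma. That fit counts consecutive samples as independent and called 1283 of 3248 features. With consecutive samples as a random block the adjusted p of CHLM was 0.167. Samples 2, 4 and 6 alone gave 0.62 log2 (adjusted p = 0.0401), and samples 1, 3 and 5 alone 0.30 log2 (adjusted p = 0.502).

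CHLP was the bright probe of the group, and its groups overlapped. The stn7 samples had intensities of 3.51, 2.71, 3.60, 2.81, 2.34 and 2.12 in the order of their numbers, with a median of 2.76. The WT samples had 3.48, 3.15, 3.11, 2.69, 2.72 and 2.38, with a median of 2.91. The highest values, over 3.5, and the lowest, 2.12, were all in stn7. The means were 2.85 ± 0.54 in stn7 and 2.92 ± 0.38 in WT (SD, n = 3 each). The difference of -0.05 log2 had a 95% interval of -0.50 to 0.40 and an adjusted p of 0.886, so a fall of up to 1.42-fold and a rise of up to 1.32-fold both lie within it. The averaged replicates lay at 1.62, 1.67 and 1.16 log2 in stn7 and at 1.73, 1.53 and 1.35 log2 in WT. The sign of the difference depended on the processing. The deposited values gave -0.14 log2 and arrays centred on their median -0.38 log2, neither of which passed, while centring by probe number, described below with the probe positions, gave 0.13 log2.

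**Figure D1:**
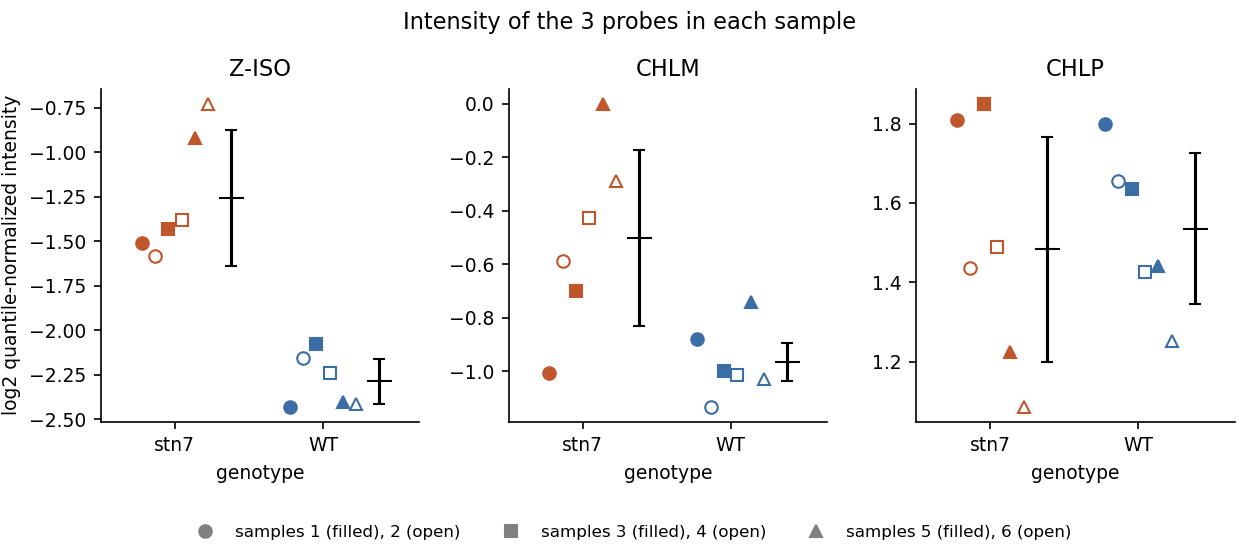
Log2 quantile-normalized intensity of Z-ISO, CHLM and CHLP in the 6 stn7 and 6 WT samples. Marker shapes show consecutive samples that were averaged, and black bars give the mean and SD of the 3 averaged replicates. All 6 stn7 samples lie above the WT samples for Z-ISO, 5 of 6 do for CHLM, and the groups overlap for CHLP.

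Ranks within each array are the same in the deposited, median-centred and quantile-normalized values, so they restate the order of the samples above as places on the array. Z-ISO held rank 1016 to 1838 of 3437 probes in the stn7 samples (median 1654, with 1 as the brightest) and rank 2297 to 2573 in the WT samples (median 2490). Its median place was the 51.9th percentile in stn7 and the 27.6th percentile in WT. CHLM ranked between 549 and 1262 in stn7 (median 850) and between 1025 and 1383 in WT (median 1262), so the ranges overlapped. CHLP ranked between 133 and 234 in stn7 and between 138 and 207 in WT, near the 95th percentile in both. A rank reflects the brightness of a probe, which depends on the probe as well as on the transcript, so the ranks do not order the 3 transcripts by abundance.

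**Figure D2:**
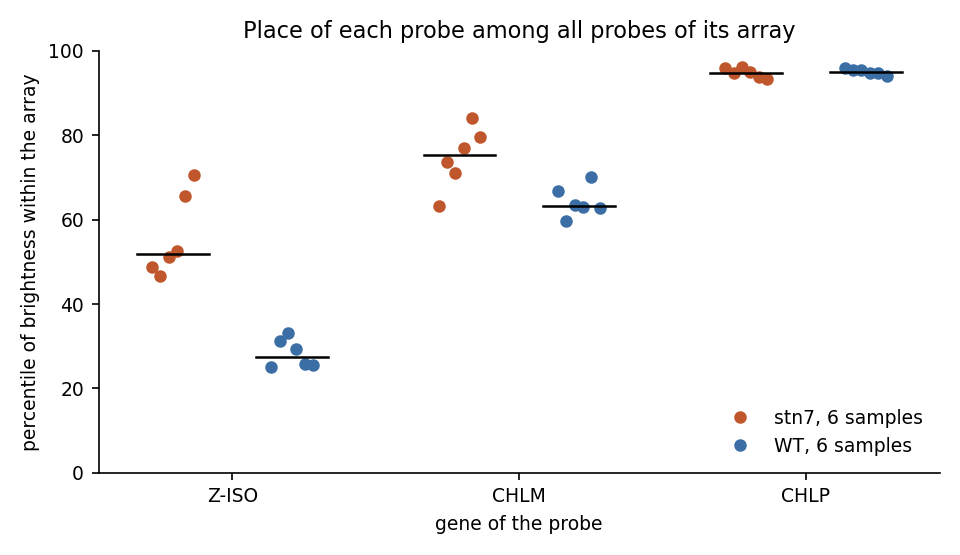
Percentile of brightness of each probe among the 3437 probes of its array, by sample, with stn7 left of WT and black lines at the medians of 6 samples. The Z-ISO medians are 51.9 in stn7 and 27.6 in WT, whereas both CHLP medians lie near 95.

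Whether the genes differed in their response was tested on the ratio of 2 probes within each array in the deposited values, in which any common scaling of the array cancels, and is given after quantile normalization beside it. The Z-ISO over CHLM ratio was 1.55-fold higher in stn7 (log2 difference 0.63, SE 0.15, n = 3 per group), and by 0.57 log2 after normalization. The log2 ratio lay between -1.02 and -0.41 in the 6 stn7 samples and between -1.74 and -1.07 in the 6 WT samples. The Z-ISO over CHLP ratio was 2.62-fold higher (log2 difference 1.39, SE 0.43), and by 1.08 log2 after normalization. Here too the 6 stn7 samples, at -3.23 to -1.65, lay above the 6 WT samples, at -4.40 to -3.61. Z-ISO alone was apart in the same way, as were 10.7% of all features, so these separations in part restate that gene. The share of separated ratios over the array was not counted. The CHLM over CHLP ratio was 1.69-fold higher (log2 difference 0.76, SE 0.36), with stn7 samples at -2.71 to -1.16 overlapping WT samples at -2.94 to -2.44. This last difference was 0.51 log2 after normalization and 0.42 log2 in the deposited values without stn7 replicate 3. Each of the 3 ratios reached an exact two-sided permutation p of 0.1, and 0.1 after adjustment over the 3, which is the smallest p that 3 against 3 replicates allow, so none could pass the threshold of 0.05.

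The genes also varied within each genotype. Over the 12 samples, of which consecutive ones are not independent and which share the normalization, Z-ISO and CHLM correlated at a Pearson r of 0.80. With each group's mean subtracted, r was 0.56 for Z-ISO with CHLM, -0.56 for Z-ISO with CHLP and -0.66 for CHLM with CHLP. After the centring by probe number described below these were 0.67, -0.19 and -0.36, so the negative values shrank. The averaged stn7 replicate 3 was the highest of the stn7 replicates for Z-ISO (-0.82 log2) and CHLM (-0.15 log2) and the lowest for CHLP (1.16 log2). In WT, replicate 3 was likewise the lowest for CHLP (1.35 log2) and the highest for CHLM (-0.88 log2), but the lowest for Z-ISO (-2.41 log2). The residual spread of CHLM (0.24 log2) and CHLP (0.24 log2) was near the median of all features (0.24 log2), and that of Z-ISO was 0.28 log2.

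Differences on this array followed the probe number, so each gene was set beside the probes near it. Probe numbers were divided into 48 sets of 6 positions along a recurring cycle of probe numbers, and the median difference of a set ran from -0.62 to 0.63 log2. All 3 genes lay in sets with medians slightly below 0. Z-ISO was in a set whose 69 other features had a median of -0.18 log2, with 2 of them called higher and 10 called lower. None of these 69 features had a larger difference than Z-ISO, and the highest was at 1.01 log2. CHLM was likewise above all 69 others of its set, whose median was -0.17 log2 and of which 0 were called higher and 13 lower. Across the whole array, however, 515 of 3248 features had a larger difference than CHLM, against 45 for Z-ISO. For CHLP 29 of 69 others, with a median of -0.08 log2, lay above it.

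**Figure D3:**
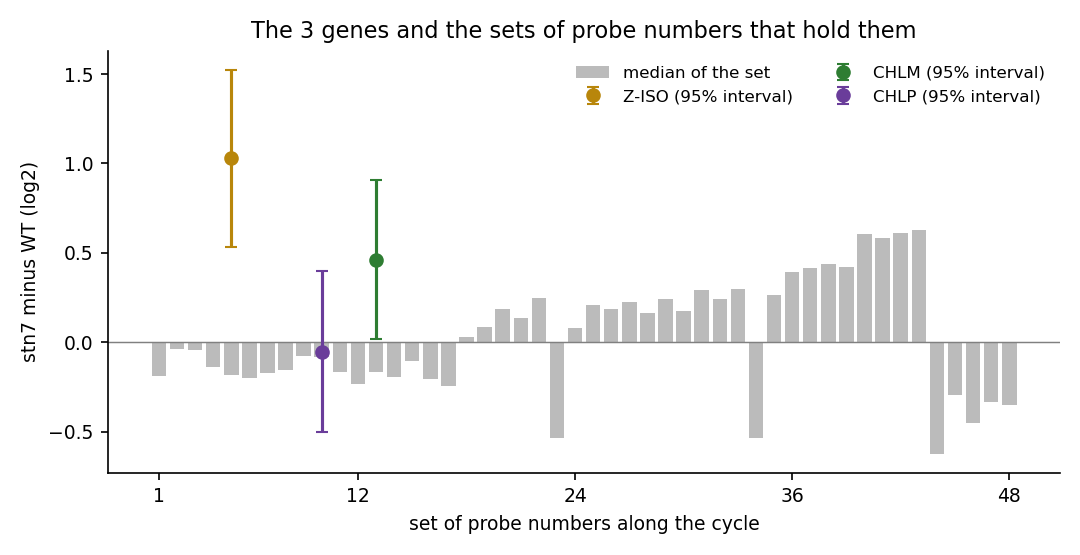
Stn7 minus WT difference (log2) of Z-ISO, CHLM and CHLP with 95% intervals, placed at the set of probe numbers that holds each, over grey bars for the median difference of each of the 48 sets. Z-ISO and CHLM stand above sets with medians of -0.18 and -0.16 log2, and CHLP lies close to the median of its set.

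When each sample was centred within these sets, the Z-ISO difference was 1.19 log2 (SE 0.23, adjusted p = 0.0260), where 1.79% of all features were called higher. CHLM was at 0.63 log2 (SE 0.17, adjusted p = 0.0774), and CHLP at 0.13 log2 (SE 0.22, adjusted p = 0.745). The probes next to Z-ISO by number did not all move with it. The adjacent ones, which have no gene entry, differed by 0.15 and -0.55 log2 and neither passed, while GLX2-1, a glyoxalase family gene 3 numbers before it, was higher by 1.01 log2 (adjusted p = 0.0487), and NTRC, a plastid thioredoxin reductase gene 3 numbers after it, differed by 0.26 log2 (adjusted p = 0.546). The 2 nearest probes with values on each side of CHLM ran from -0.89 to 0.52 log2 and those of CHLP from -0.33 to 0.47 log2, and none of these 8 passed. Whether position on the array contributed to the difference of a single gene was not tested.

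Few other genes of these pathways could be read. Of 95 genes listed for synthesis and breakdown of chlorophyll, heme, carotenoids, plastid isoprenoids and tocopherols, 4 were on probes with a single gene name, namely the 3 described and VTE6 (AT1G78620), the phytyl phosphate kinase that channels phytol into tocopherol synthesis. A further 6 were on probes with several genes and were not assigned. Of the 4 measured genes, 1 was called higher (Z-ISO) and 0 lower, against 6.53% and 8.68% of all features, with a median difference of 0.21 log2 against 0.05 log2 over all features.

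VTE6 did not pass. Its intensity ran from 0.235 through a median of 0.319 to 0.429 in the stn7 samples and from 0.307 through 0.616 to 1.41 in the WT samples. WT samples 5 and 6, at 0.329 and 0.307, lay inside the stn7 range, and the other 4 lay above it. The difference was -0.94 log2 (SE 0.41, 95% interval -1.89 to 0.02, adjusted p = 0.160), and the WT replicates alone spanned 1.76 log2. Without WT replicate 3 it was -1.39 log2 (adjusted p = 0.0461), and without WT replicate 1 it was -0.51 log2 (adjusted p = 0.372). After centring by probe number it was -0.63 log2 (adjusted p = 0.122).

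The genes with the most similar profile were taken from 461 single-gene features above the lowest 25% by level, by Pearson r over the 12 samples, as a description. For Z-ISO these were AT3G51500 (r = 0.94), AT1G63610 (r = 0.93) and AT2G39100 (r = 0.92). Their differences of 0.67, 0.52 and 0.76 log2 follow in part from the choice, since the profile of Z-ISO holds its own difference. For CHLM they were AT5G42680 (r = 0.90), PSBY (r = 0.89), which encodes a small photosystem II protein, and AT3G09490 (r = 0.89), and none of these passed. For CHLP they were AT4G24090 (r = 0.89), AT3G13150 (r = 0.78) and AT3G58830 (r = 0.72), with differences between -0.18 and 0.00 log2. The neighbours in profile depended on the probe-number correction. After set centring only AT5G42680, beside CHLM (r = 0.91), was again among the 3 most similar. Set-centred Z-ISO was most like AT4G40080, AT4G23080 and AT4G38670 (r = 0.92 to 0.94).

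The Z-ISO difference lay between 0.78 and 1.45 log2 in the 35 alternatives run and passed in 27 of them. It passed in 12 of 12 with 1 sample left out, in 1 of 6 with 1 averaged replicate left out and in 14 of 17 others. With 1 sample left out, its consecutive sample stood for the replicate. Those fits kept 3 replicates per group and could differ little from the main fit. Leaving out samples could not change the sign for Z-ISO, because all 6 stn7 samples lay above all 6 WT samples. CHLM was positive in 34 of 35 and passed in 2. CHLP passed in 0 of 35, with an adjusted p of at least 0.271 and an unadjusted p of 0.794 in the fit described here, and was negative in 25 and positive in 10.

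**Figure D4:**
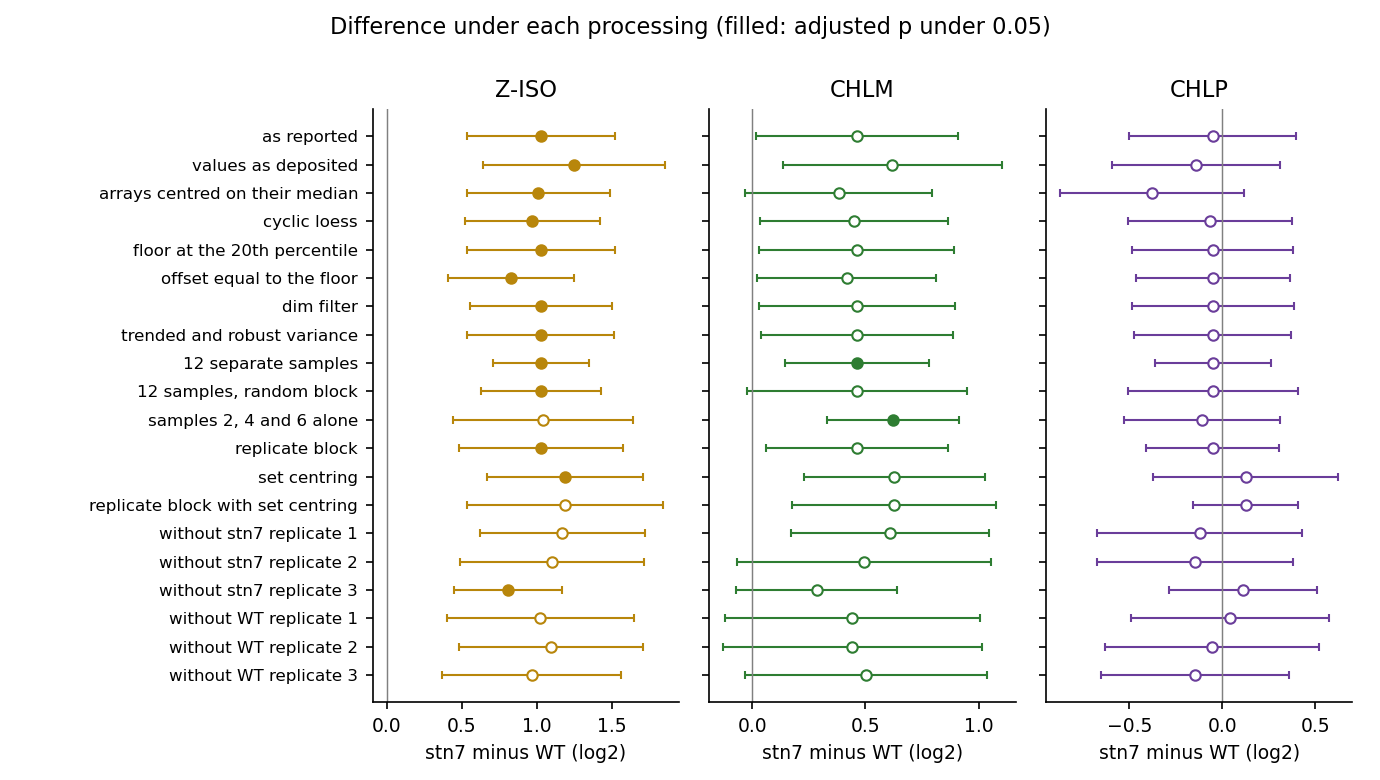
Stn7 minus WT difference (log2) of the 3 genes under the main processing and 19 of the alternatives, with 95% intervals from limma. Filled points have an adjusted p under 0.05. The intervals, which are not adjusted over all features, exclude 0 throughout for Z-ISO and include it throughout for CHLP. The Z-ISO point is open with samples 2, 4 and 6 alone and with the replicate block and set centring together. With 1 averaged replicate left out it is filled in 1 of 6 cases.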

How the data were processed

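The authors deposited 1 table with a column of linear intensities for each sample. How the authors scanned, corrected and scaled them is not given in the sources used here. Of 3439 probes 3437 had values; 692 had 1 gene, 869 several and 1876 none, and 690 of the 692 matched the RefSeq gene table of assembly TAIR10.1. Column medians differed by up to 0.478 log2, so arrays were quantile-normalized. Values under the 10th percentile (0.0702) were set to it, log2 was taken, and 188 probes that never exceeded this floor were dropped. Consecutive samples of a group, whose deviations from the group mean correlated at 0.188 to 0.632 against at most 0.170 otherwise, were averaged. All 3248 features were fitted in R 4.3.3 with limma 3.58.1 (lmFit, eBayes), no block, Benjamini-Hochberg adjustment over all features and a threshold of 0.05. Ratios were tested by exact permutation with scipy 1.17.1. The 3 genes, the pathway lists and the alternatives were chosen with earlier results of these data known. Named genes were the 3, other measured pathway genes, their neighbours by probe number and the 3 genes most alike in profile. Alternatives covered scaling, floor, dim probes, variance model, averaging, replicate block, probe-number sets, left-out samples and source names. Ratio tests and lists carry no set test. Same-numbered averaged replicates correlated at 0.171, 0.120 and 0.0901, not all over 0.1, so numbers were not taken to pair samples.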

Additional observations from a re-analysis of the deposited data

How the results depend on the processing

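The widths of 3 and 12 for set centring and the use of samples 1, 3 and 5 alone were chosen after seeing the data. Z-ISO missed the threshold with samples 2, 4 and 6 alone (1.04 log2, adjusted p = 0.0530), with the replicate block and set centring together (1.19 log2, adjusted p = 0.0715) and with the 1 sample whose source name says mutant (0.78 log2, adjusted p = 0.0970), a fit that assumes this lone sample varies like the WT. With the replicate block alone Z-ISO passed (adjusted p = 0.0452), and neither CHLM (adjusted p = 0.110) nor CHLP (adjusted p = 0.823) did. With 1 averaged replicate left out Z-ISO lay between 0.81 and 1.17 log2, and with 1 sample left out between 0.98 and 1.07 log2, where it passed in 12 of 12 cases. In those 12 cases the consecutive sample stood for the replicate, so each fit kept 3 replicates per group. CHLM passed as 12 separate samples (0.46 log2) and with samples 2, 4 and 6 alone (0.62 log2), and was at -0.041 log2 with the sample named mutant alone. CHLP was at 0.28 log2 with that sample alone and at 0.19 log2 with sets of 3. The array-wide count of 494 calls was 1283 with 12 separate samples, 308 with samples 2, 4 and 6, 8 with the sample named mutant alone, 407 with the replicate block, 184 with set centring, 117 with the replicate block and set centring, and 173 and 222 with sets of 3 and 12. Without 1 averaged replicate it was 45 (WT 1), 30 (WT 2), 272 (WT 3), 4 (stn7 1), 284 (stn7 2) and 218 (stn7 3), in fits that have fewer samples, and without 1 sample 419 to 493. The split of calls moved with the scaling, from 212 higher and 282 lower to 289 and 179 in the deposited values and 133 and 347 with median centring. The 3 ratios kept their sign in all 8 alternatives each. The 6 alternatives that left out 1 averaged replicate could not change it, because all averaged stn7 replicates lay above the WT ones in each ratio. The cause of these shifts was not tested. Signal over background is not known.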

Other observations

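CHLP was higher in the odd-numbered than in the even-numbered sample of all 6 consecutive pairs, by 0.14 to 0.37 log2, in both genotypes. Of all 3248 features, 3.33% had this pattern and 3.23% the opposite one, and neither Z-ISO (3 of 6 pairs) nor CHLM (4 of 6 pairs) did.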
